A study of Mus musculus with 3 samples.

Results

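A sorted fraction of adult lung endothelial cells (ECs) carried transcripts of nearly every nuclear gene of the oxidative phosphorylation machinery. The genes described here are the rows of the deposited expression table whose symbols begin with Nduf followed by a, b, c, s or v, with Sdh followed by a to d alone, with Uqcr, with Cox4 to Cox8 or with Atp5, leaving out names that hold -ps. This rule uses symbols only and no measured value. It found 92 of the 24346 genes in the table: 45 of complex I, 4 of complex II, 8 of complex III, 18 of complex IV and 17 of complex V. Of the 92, 90 reached a mean of 1 FPKM (fragments per kilobase of transcript, scaled to library size) and 30 reached 100 FPKM.

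The cells came from the lungs of male wild type C57BL/6J mice aged 6 to 8 weeks and were not cultured. They carried no transgene and received no treatment other than an intravital antibody to VE-cadherin. They were sorted as CD31+ VE-cadherin+ CD45- Podoplanin- cells and gave 3 libraries of 1 group, called S38, S44 and S52, and values of single libraries are given in this order throughout. Lung was among the organs set beside the kidney in the study, and the other organs and stages were not analysed here, so there is no contrast and every value below is a level or a spread between libraries. Nothing in the sources used here says whether the 3 libraries came from separate mice, so their spread may be technical in part.

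Oxidative phosphorylation couples the oxidation of NADH and succinate to the making of ATP in the inner mitochondrial membrane. Complexes I (NADH dehydrogenase) and II (succinate dehydrogenase) pass electrons to ubiquinone, complex III passes them on to cytochrome c, complex IV (cytochrome c oxidase) passes them to oxygen, and complex V (ATP synthase) uses the proton gradient built on the way. Most subunits are encoded in the nucleus, and the rest, together with the ribosomal RNAs that translate them, in mitochondrial DNA. ECs are known for drawing much of their ATP from glycolysis, and their mitochondria serve biosynthesis and signalling as well. The mitochondrially encoded subunits have no row in the table and were not analysed here.

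Depth was estimated from the steps between low values, by a procedure settled on once the values had been seen, at 37600000, 38600000 and 34200000 fragments. At the median length of the 92 genes, 746 bp, 1 FPKM then stood for 22.4, 23.0 and 19.7 fragments, and a count of 0 allowed at most 0.134, 0.130 and 0.152 FPKM, taken as 3 fragments and covering counting error alone. The endothelial label was checked with 8 markers, whose median was 628, 669 and 627 FPKM. Markers of other cells were present at levels that differed between libraries, and S52 was the lowest library for 5 of 5 alveolar type 2, 5 of 5 airway, 4 of 4 platelet, 6 of 6 leukocyte and 4 of 4 erythroid markers. The median of each of these lists lay below the endothelial one in every library. The alveolar *Sftpc*, at 3333, 2862 and 658 FPKM, and the airway *Scgb1a1*, at 2669, 2212.5 and 378 FPKM, lay above all 8 endothelial markers in S38 and S44. Levels below are those of the sorted fraction and not of ECs alone. In a bulk sample, fewer cells of a type and less RNA per cell cannot be told apart.

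The median level over the 92 genes was 71.1 FPKM, with library medians of 70.7, 73.2 and 69.9 FPKM (SD 1.74, n = 3 libraries). The median over all detected genes (mean of 1 FPKM or more) was 11.2 FPKM, and 79 of the 92 lay above it. A mean of 1 FPKM was reached by 97.8% of the 92 and by 48.3% of all genes. For 10 FPKM the shares were 85.9% (79 genes) and 25.7%, and for 100 FPKM they were 32.6% and 3.64%. The 92 genes made up 1.94 ± 0.0363% (SD, n = 3) of the FPKM sum of 20489 protein-coding genes, of which they are 0.449% by number. Their own sum was 8929, 9005 and 8752 FPKM. The sum over all 24346 genes of the table was 1153890, 1603596 and 1419351 FPKM. Their share of that sum was therefore lower and differed more between libraries.

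**Figure D1:**
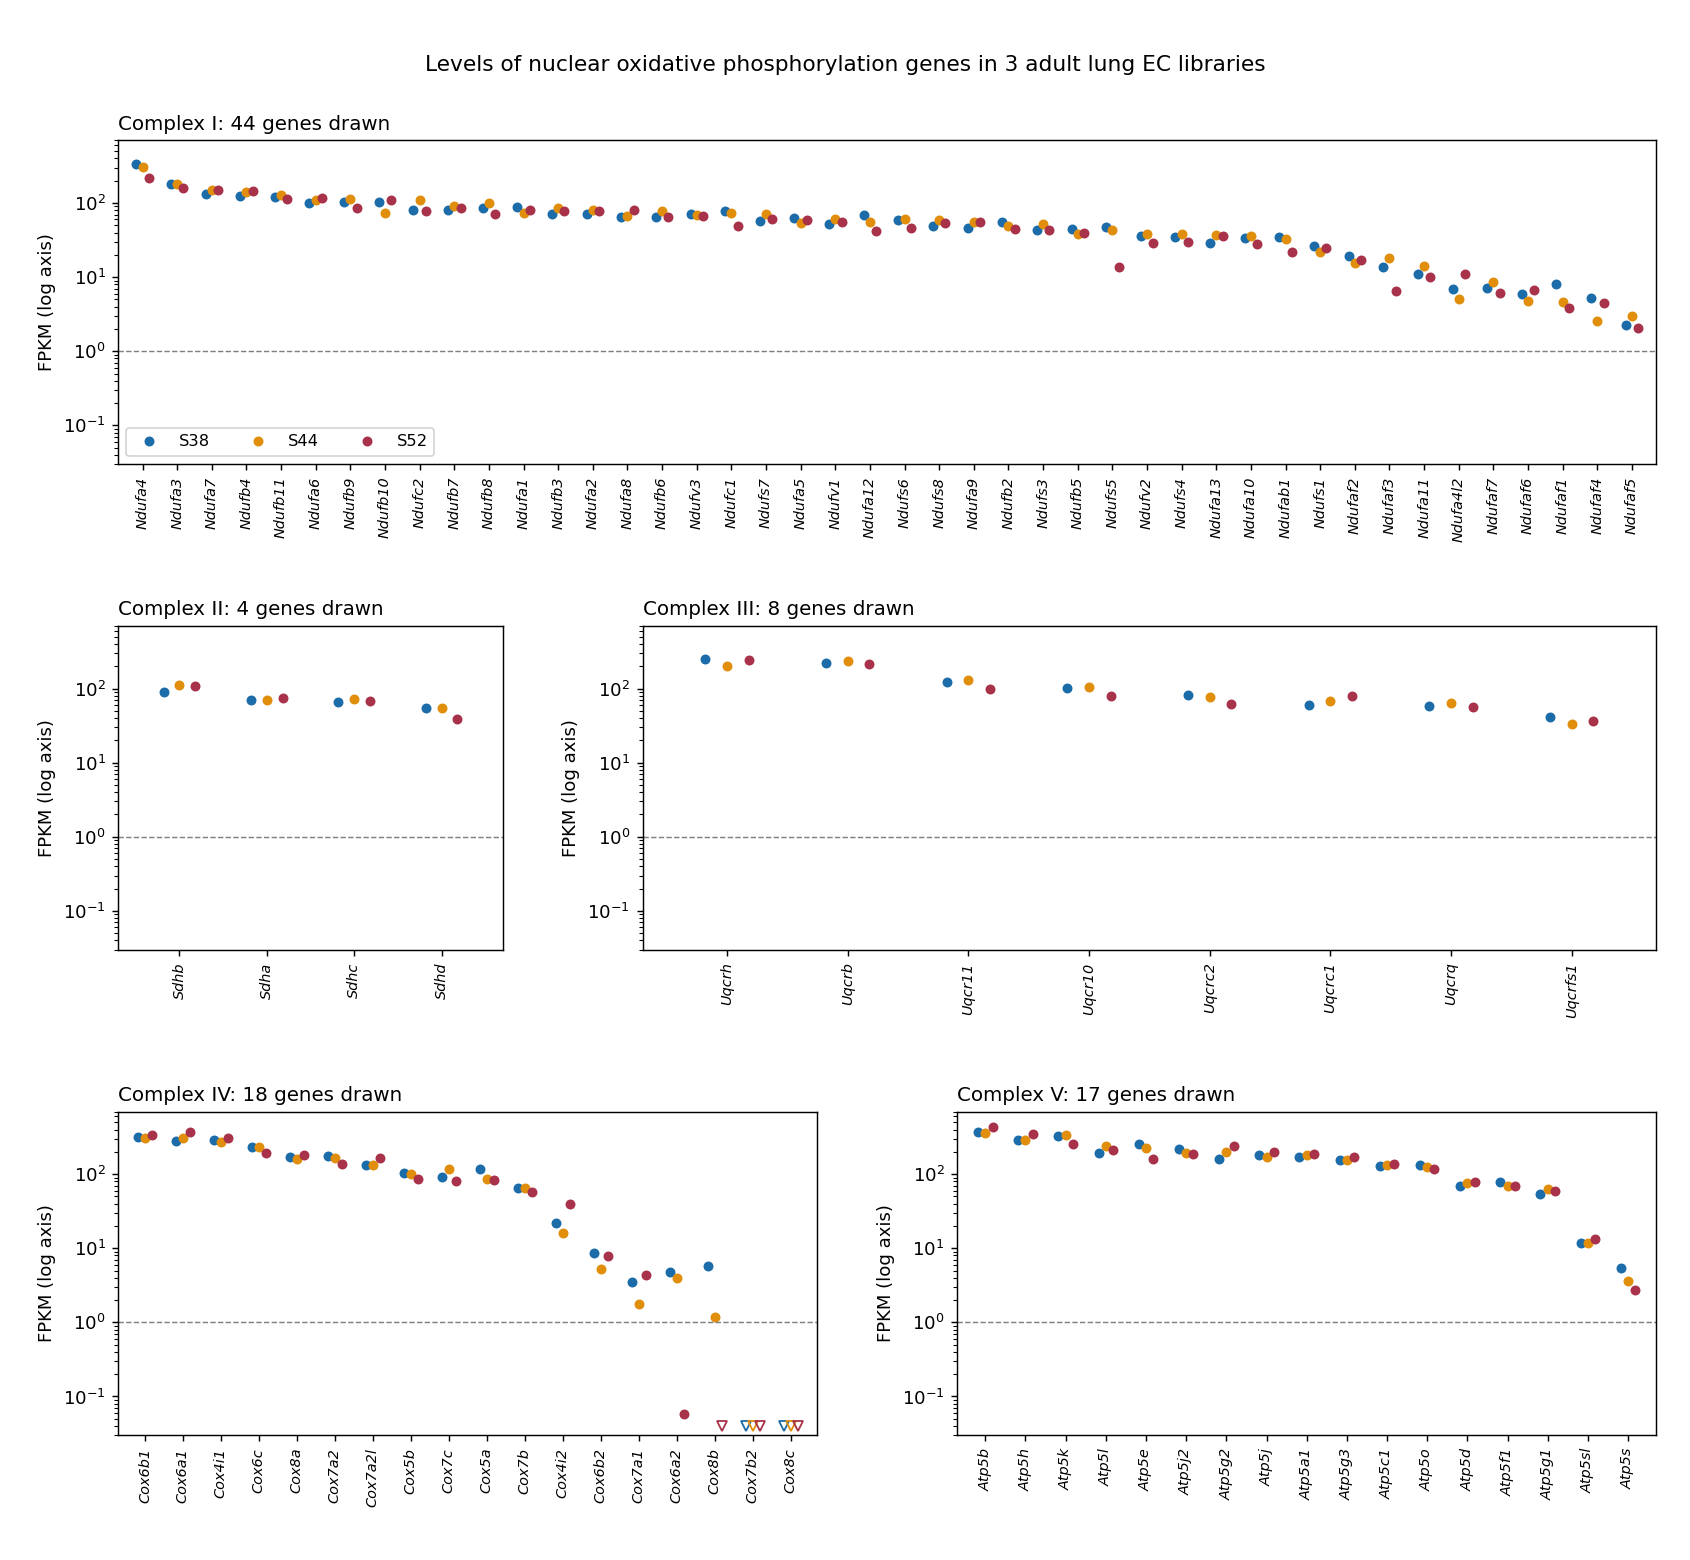
Level in FPKM (log axis) of 91 of the 92 genes in libraries S38, S44 and S52, by complex and in order of the mean. Each point is 1 library, open triangles at the bottom mark a value of 0, and the dashed line marks 1 FPKM. Complexes IV and V each hold a plateau of high genes and a short tail of low ones, and *Cox7b2* and *Cox8c* were at 0 in all 3 libraries.

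Levels differed by the role of the gene in its complex. The 75 structural subunits had a median of 85.3 FPKM, and all 75 had a mean above 10 FPKM, down to *Ndufa11*, a membrane arm subunit of complex I, at 11.7 ± 2.08 FPKM (SD, n = 3). The 7 assembly factors that the rule includes (*Ndufaf1* to *Ndufaf7*), which help to build complex I and are not part of it, had a median of 5.80 FPKM, 14.7-fold below the structural subunits. They ran from *Ndufaf5* at 2.45 ± 0.489 FPKM to *Ndufaf2* at 17.3 ± 1.79 FPKM (SD, n = 3). The 8 subunit isoforms and paralogues known from muscle, testis, lung or hypoxia had a median of 3.07 FPKM, and 1 of them reached 10 FPKM. The remaining pair, *Atp5s* and *Atp5sl*, named for a coupling factor of the ATP synthase, stood at 3.94 ± 1.40 and 12.3 ± 0.866 FPKM (SD, n = 3). *Atp5sl*, called *Dmac2* in GENCODE M21, was counted in complex V by its symbol alone.

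Among the structural subunits, the median was lowest in complex I and highest in complex V. They were 66.7 FPKM over 37 genes of complex I, 70.6 FPKM over 4 of complex II, 84.0 FPKM over 8 of complex III, 158 FPKM over 11 of complex IV and 183 FPKM over 15 of complex V. Over all genes of each complex the medians were 55.8 ± 2.97, 70.6 ± 1.41, 84.0 ± 6.73, 96.4 ± 8.36 and 180 ± 5.70 FPKM (SD of the library medians, n = 3), in the same order. Complex IV moved most between these summaries, because 7 of its 18 genes are restricted isoforms. Without the 18 genes that share over 10% of their read-length windows with genes elsewhere (described further on), the median over all genes of complex IV was 25.9 FPKM, the lowest of the 5. By summed FPKM, complex I gave 32.0 ± 1.44%, complex II 3.31 ± 0.146%, complex III 10.2 ± 0.289%, complex IV 22.7 ± 0.827% and complex V 31.9 ± 0.859% of the total over the 92 genes (SD, n = 3). The shares of complexes I and V, with 45 and 17 genes, differed by less than their spread. Complex I here includes *Ndufa4*, placed by its symbol and since assigned to complex IV. That gene alone gave 3.20 ± 0.674% (SD, n = 3) of the total, so the comparison depends on its placement.

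Shorter genes tended to have higher values. Spearman's rho between mean FPKM and transcript length was -0.48 across the 75 structural subunits and -0.38 across the 90 detected genes. Across 10868 protein-coding genes with such a mean it was -0.17. Genes are not independent replicates, and the points share their libraries. The 92 genes had a median length of 746 bp against 2418.5 bp for protein-coding genes in the table, and 58 were under 1000 bp, as were 11.6% of protein-coding genes. FPKM of transcripts only a few times longer than a sequenced fragment depends strongly on how the effective length is set, so levels of the shortest genes are less certain. The part of length in the order of the complexes was not tested. Median lengths over all genes of complexes I to V were 870.5, 1612, 519.5, 588.5 and 747.5 bp.

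In complex I, the 7 nuclear core subunits, which hold the flavin and the iron-sulfur clusters, had a median of 54.1 FPKM, and the 30 accessory subunits one of 69.8 FPKM. Of the core subunits that oxidise NADH, *Ndufv1*, which binds the flavin, was at 56.7 ± 4.47 FPKM, *Ndufv2* at 34.4 ± 4.75 FPKM and *Ndufs1* at 24.4 ± 2.05 FPKM (SD, n = 3). *Ndufs1*, the largest of the core subunits, was the lowest of them in every library, at 26.0, 22.1 and 24.9 FPKM. Among those that pass electrons to ubiquinone, *Ndufs7* was at 63.1 ± 6.96, *Ndufs8* at 54.1 ± 5.35 and *Ndufs3* at 46.0 ± 4.90 FPKM (SD, n = 3). The 3 highest genes of complex I were accessory. *Ndufa4*, since assigned to complex IV, was at 338, 303 and 216 FPKM, lowest in S52. *Ndufa3* followed at 175 ± 11.9 FPKM and *Ndufa7* at 143 ± 10.4 FPKM (SD, n = 3), and the lowest were the assembly factors *Ndufaf4*, at 4.12 ± 1.42 FPKM, and *Ndufaf5*.

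Complex II, the only one of the 5 with no mitochondrially encoded subunit, had 4 genes with means between 49.5 and 103 FPKM. *Sdha*, the flavoprotein that oxidises succinate, was at 71.1, 69.7 and 75.05 FPKM. *Sdhb*, the iron-sulfur subunit, was the highest, at 89.0, 111.9 and 109 FPKM. The membrane anchors *Sdhc* and *Sdhd* were at 69.3 ± 3.12 and 49.5 ± 8.89 FPKM (SD, n = 3). *Sdhd* was the lowest of the 4 in every library, at 54.1, 55.2 and 39.3 FPKM, while *Sdha* and *Sdhc* changed places from S38 to S44 and differed by less than their spread.

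In complex III, the small accessory subunits *Uqcrh* (the hinge protein), *Uqcrb* and *Uqcr11* were highest, at 230.1 ± 22.8, 225 ± 9.47 and 116 ± 16.7 FPKM (SD, n = 3). The core proteins *Uqcrc1* and *Uqcrc2* were at 68.9 ± 9.10 and 73.1 ± 10.4 FPKM (SD, n = 3), a difference smaller than either SD. They ranked the libraries in opposite order. *Uqcrc1* was at 60.8, 67.2 and 78.7 FPKM, and *Uqcrc2* at 81.3, 76.6 and 61.5 FPKM. *Uqcrfs1*, the Rieske iron-sulfur protein that takes electrons from ubiquinol, was the lowest gene of the complex in every library, at 37.0 ± 4.05 FPKM (SD, n = 3), with *Uqcrq* next at 60.01 ± 3.84 FPKM (SD, n = 3).

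In complex V, the F1 head subunit *Atp5b*, which carries the catalytic sites, was the highest of the 92 genes on average, at 368, 358 and 434 FPKM. Its partner *Atp5a1* was at 180 ± 8.98 FPKM (SD, n = 3). *Atp5h* of the peripheral stalk and *Atp5k* of the membrane part followed *Atp5b*, at 311 ± 35.8 and 309 ± 43.96 FPKM (SD, n = 3), and could not be ordered beyond their spread. Besides *Atp5s* and *Atp5sl*, the lowest gene of the complex was *Atp5g1*, at 58.5 ± 5.18 FPKM (SD, n = 3).

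The c subunits of the rotor ring are encoded by 3 genes whose precursors differ in their targeting sequence and give the same mature protein. The last 90 coding bases of *Atp5g1* (chr11:96068852-96075670, minus strand), *Atp5g2* (chr15:102662864-102672352, minus strand) and *Atp5g3* (chr2:73908447-73911326, minus strand) are shown on the coding strand from GENCODE M21 on GRCm38 (positions are those of the whole genes), stop codon left out, because they tell how far fragments of the 3 genes can be told apart. Capitals mark the 24 positions at which the 3 are not all the same.
Atp5g1: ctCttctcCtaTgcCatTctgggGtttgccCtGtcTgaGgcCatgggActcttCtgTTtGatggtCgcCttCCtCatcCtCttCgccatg
Atp5g2: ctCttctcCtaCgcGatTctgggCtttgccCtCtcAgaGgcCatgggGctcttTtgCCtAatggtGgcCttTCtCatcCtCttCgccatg
Atp5g3: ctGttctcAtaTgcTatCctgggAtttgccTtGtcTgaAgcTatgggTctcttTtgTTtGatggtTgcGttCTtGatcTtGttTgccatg
Over these bases *Atp5g1* and *Atp5g2* were identical at 86.7%, *Atp5g1* and *Atp5g3* at 81.1%, and *Atp5g2* and *Atp5g3* at 74.4% of positions.

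Of the 3, *Atp5g2* gave 47.3 ± 3.84% of the summed FPKM, *Atp5g3* 38.5 ± 3.12% and *Atp5g1* 14.1 ± 1.44% (SD, n = 3). *Atp5g2* was at 160, 197 and 239 FPKM, *Atp5g3* at 155, 154 and 170 FPKM, and *Atp5g1* at 53.2, 63.6 and 58.6 FPKM. In S38 *Atp5g2* and *Atp5g3* were close, and in S52 *Atp5g2* was the higher by more. *Atp5g1* was the lowest in every library, 3.36-fold below *Atp5g2* and 2.74-fold below *Atp5g3* on the mean log2 ratio. The level of *Atp5g2* is uncertain. Of the 51-base windows (the length of a read) of its longest protein-coding transcript, 87.4% also occur in genes elsewhere in the genome. The gene model *Gm10175* shares the most of them, and reads from shared windows cannot be told apart.

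**Figure D2:**
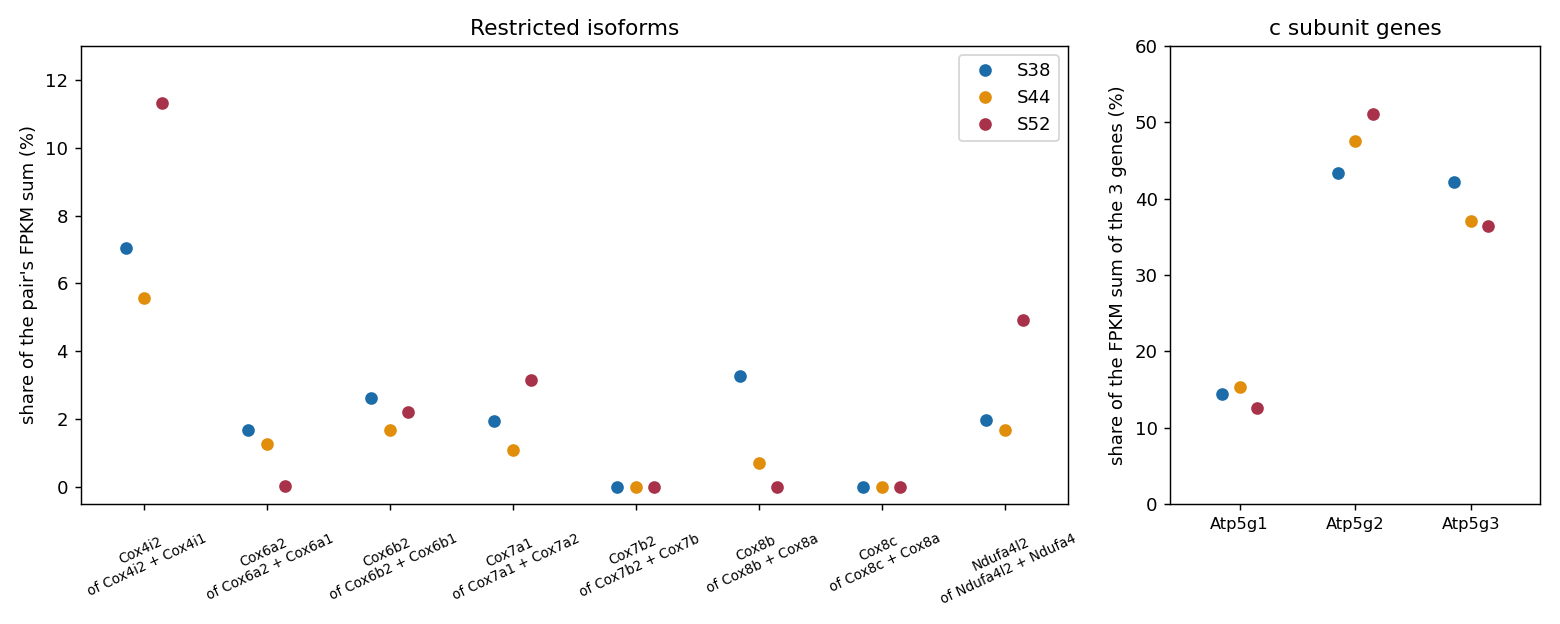
Share of each restricted isoform in the summed FPKM of the isoform and its common partner (left, in %), and of the c subunit genes in the sum of the 3 (right, in %), per library; each point is 1 library. *Cox4i2* took the largest share of the restricted isoforms, between 5.57% and 11.3%, and *Cox6a2* and *Cox8b* were at or near 0 in S52 only.

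Complex IV holds most of the subunits with tissue-restricted isoforms, and in this sorted fraction the common isoform was the higher in each of the 7 comparisons. *Cox6b1*, *Cox6a1* and *Cox4i1* were its 3 highest genes. *Cox6b1*, which joins the dimer, was at 322 ± 18.04 FPKM, *Cox6a1* at 320 ± 49.5 FPKM and *Cox4i1* at 291 ± 17.6 FPKM (SD, n = 3). *Cox8a* was at 170 ± 9.67, *Cox7a2* at 158 ± 21.2 and *Cox7b* at 62.5 ± 5.20 FPKM (SD, n = 3), and *Cox7a2l*, a related protein that joins complexes III and IV in supercomplexes, was at 144 ± 19.98 FPKM (SD, n = 3).

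*Cox4i2* (chr2:152754173-152765037, plus strand), the isoform of subunit IV known from lung and induced by low oxygen, was the highest of the restricted forms. It was at 21.8, 16.2 and 39.6 FPKM, and *Cox4i1* was at 287, 275 and 310 FPKM. Its share of the pair was 7.03%, 5.57% and 11.3%, and on the mean log2 ratio it lay 12.1-fold below *Cox4i1* (log2 ratio -3.59 ± 0.57, SD, n = 3). S52 was the highest and S44 the lowest library. *Ndufa4l2* (chr10:127514967-127517154, plus strand), the hypoxia-responsive paralogue of *Ndufa4*, had the same order, at 6.84, 5.15 and 11.2 FPKM, as did *Cox7a1*, at 3.51, 1.78 and 4.38 FPKM. In all, 15 of the 90 detected genes (16.7%) had this order, against 17.8% of all detected genes.

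The markers of mural cells (pericytes and smooth muscle), in which *Cox4i2* and *Ndufa4l2* are known to be expressed, were in part ordered alike. Of 7 mural markers, 7 were lowest in S44, as were 3337 of all 11770 detected genes. Of the 7, 4 were highest in S52 and none was at 0. Their summed level was 125, 65.9 and 124 FPKM, no higher in S52 than in S38. Among the 8 endothelial markers, 1 had the order of *Cox4i2*, *Erg*, at 59.2, 43.1 and 84.8 FPKM. The marker *Higd1b*, itself related to a complex IV supercomplex factor, was at 7.88, 4.94 and 10.7 FPKM. The part of mural transcripts in the level of *Cox4i2*, *Ndufa4l2* and *Cox7a1* was not tested. An exon of *Ndufa4l2* also overlaps *Shmt2* on the opposite strand in libraries without strand information, and *Shmt2* was at 11.7, 11.8 and 10.4 FPKM, lowest in S52.

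The muscle isoforms *Cox6a2* (chr7:128205435-128206387, minus strand) and *Cox8b* (chr7:140898945-140900446, minus strand) had another order, highest in S38 and lowest in S52. It was the order of 22 of the 90 detected genes (24.4%), against 26.6% of all detected genes. *Cox6a2* was at 4.76, 3.93 and 0.0587 FPKM, about 94.9, 80.4 and 1 fragment by the depth estimate. *Cox8b* was at 5.72 and 1.16 FPKM in S38 and S44, about 45.1 and 9.4 fragments, and was listed at 0 in S52, where 3 fragments would be 0.462 FPKM. Of 8 cardiac muscle markers, 7 had this order of the libraries. Their summed level was 85.2, 50.2 and 47.3 FPKM, and *Myl7*, *Myh6* and *Ryr2* were at 0 in S52. The exception was *Actc1*, at 18.6, 13.4 and 30.6 FPKM. The alveolar type 2, airway and platelet markers had that order as well, so it is not particular to cardiac markers. Skeletal muscle markers were at or below 3.64 FPKM. Of the brown fat markers, *Ucp1* was at 0 in all libraries and *Cidea* at 0.0522, 0.409 and 0 FPKM. The part of muscle transcripts in the level of *Cox6a2* and *Cox8b* was not tested. An exon of *Cox6a2* overlaps *Itgad* on the opposite strand, and *Itgad* was at 0.173, 0 and 0.0386 FPKM.

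Of the isoforms known from testis, *Cox6b2* was at 8.50, 5.28 and 7.78 FPKM, with a share of 2.18 ± 0.477% (SD, n = 3) of its pair with *Cox6b1*. *Cox7b2* and *Cox8c* were listed at 0 in all 3 libraries, which allows up to 0.236 and 0.305 FPKM in S52, the shallowest library. The 4 germ cell markers were at or below 0.245 FPKM.

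For most of the 92 genes the 3 libraries lay close together. The median coefficient of variation was 11.2% over the 90 detected genes and 17.6% over all 11770 detected genes, which are lower in level. At a mean of 10 FPKM or more it was 10.7% over 79 genes and 13.9% over 6269. The highest library was under 1.5-fold above the lowest for 73 of the 90 (81.1%), against 58.3% of all detected genes, and under 1.2-fold for 33 (36.7%), against 21.9%. On the log2(FPKM + 1) scale, on which differences of low genes are understated, 5 of the 90 (5.56%) differed over 2-fold between the extreme libraries, against 12.7% of all detected genes. They were *Cox4i2*, *Cox6a2*, *Cox8b*, *Ndufaf3* and *Ndufs5*. Without S38, S44 or S52 the number was 4, 3 or 1 in turn, and the share over all detected genes was not computed for these counts. With a pseudocount of 0.1 it was 9, against 19.3% of all detected genes, and with each library rescaled to an equal sum it was 8, against 15.2%. At 10 FPKM and above it was 3 of 79, against 7.90%.

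*Ndufs5*, an accessory subunit of complex I, was the only structural subunit among the 5. It was at 47.7, 42.8 and 13.7 FPKM, so S52 alone stood apart. Of the 51-base windows of its longest protein-coding transcript, 30.8% also occur in genes elsewhere in the genome. The processed pseudogene *BC002163* shares the most of them, and its own level was 32.1, 22.5 and 46.5 FPKM, highest in S52. The sum of both was 79.8, 65.4 and 60.2 FPKM, and differed 1.33-fold at most. FPKM is scaled to the length of each transcript, so this sum is not a count of the reads of the pair. The split of shared reads between the pair was not tested. *Ndufaf3*, an assembly factor, was at 13.8, 18.3 and 6.50 FPKM, lowest in S52. Its exons overlap *Impdh2* on the opposite strand, and *Impdh2* was at 72.8, 90.5 and 112 FPKM, highest in S52.

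As a set, the 90 detected genes differed between libraries by amounts close to those of all detected genes. The median difference was -0.01 for S44 minus S38, -0.06 for S52 minus S38 and -0.11 for S52 minus S44 on the log2(FPKM + 1) scale, against -0.03, -0.08 and -0.06 for all detected genes. The first and the last turned to the other sign when the libraries were rescaled, to the upper quartile and to an equal sum in turn. S52 was the lowest library for 42 of the 90 (46.7%) and for 46.3% of all detected genes. Counts by complex varied. S52 was lowest for 22 of 45 genes of complex I and 5 of 8 of complex III, and for 6 of 17 of complex V, whose median difference was 0.13 for S52 minus S38 against -0.10 in complex I. With 3 libraries of 1 group this was not tested.

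**Figure D3:**
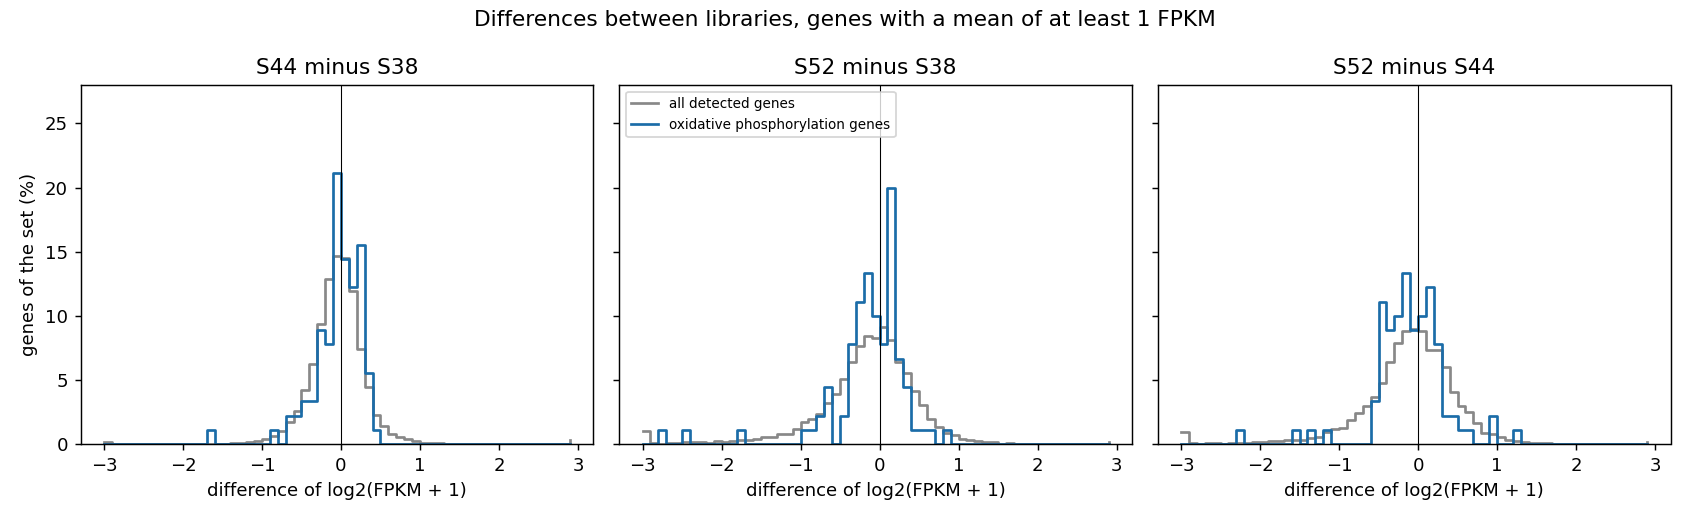
Distribution of the difference of log2(FPKM + 1) between each pair of libraries, in bins of 0.1, for the 90 oxidative phosphorylation genes (blue) and all 11770 genes (grey) that reached 1 FPKM on average. The vertical axis is the share of each set in %, and values beyond 3 in size are drawn in the outermost bins. Both sets centre near 0 in each panel, and the oxidative phosphorylation genes spread less.

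The genes share features that the rule did not use. They lie on 19 chromosomes. In GENCODE M21, 25 of the 92 (27.2%) have the start of a protein-coding gene on the opposite strand within 1000 bp, a head-to-head arrangement found for 7.23% of 21951 protein-coding genes. Examples are *Sdhd* with *Timm8b*, which encodes a chaperone of mitochondrial import, at 98 bp, and *Ndufa7* with *Rps28*, a ribosomal protein gene, at 10 bp. Part of their sequence also occurs in genes elsewhere, for many of them in processed pseudogenes. At least 1 of their 51-base windows occurs in another gene for 36 genes, over 10% of the windows for 18 and over 50% for 2, *Atp5g2* and *Atp5l* (68.4%, with *Gm10221* sharing the most). The same shares over all genes were not computed, so these counts do not set the 92 genes apart. Levels of these 18 are uncertain.

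RefSeq promoters (GRCm38.p6, 250 bases before to 50 after the start) were matched for 76 of the 92 genes, with 1 window a gene. They were searched on both strands for motifs of factors known to act on nuclear mitochondrial genes, nuclear respiratory factor 1 (NRF1, GCGCATGC), the ETS factors with GABP (CCGGAAG) and YY1 (AANATGGC, N being any base), and for the TATA box (TATAAA). Overlapping matches were counted. The windows below were chosen after the matches were seen, to show windows with each motif and 2 pairs of a common gene and its muscle isoform. *Cox6a1* (chr5:115348909-115349208, minus strand) holds an NRF1 match read on both strands and an ETS match. *Ndufb5* (chr3:32736813-32737112, plus strand), an accessory subunit of complex I, holds 2 YY1 matches. *Cox8a* (chr19:7217567-7217866, minus strand) holds 2 ETS matches, and its muscle partner *Cox8b* (chr7:140900397-140900696, minus strand) a TATA match and none of the others. *Cox7a2* (chr9:79759804-79760103, minus strand) and its muscle partner *Cox7a1* (chr7:30183921-30184220, plus strand) hold none. Capitals mark the matches.
Cox6a1: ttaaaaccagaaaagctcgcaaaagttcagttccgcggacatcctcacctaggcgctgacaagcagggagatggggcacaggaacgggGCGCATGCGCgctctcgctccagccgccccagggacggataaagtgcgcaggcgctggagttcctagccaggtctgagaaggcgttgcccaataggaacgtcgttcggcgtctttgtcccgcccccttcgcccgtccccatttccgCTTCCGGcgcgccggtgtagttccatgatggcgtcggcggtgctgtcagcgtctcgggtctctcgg
Ndufb5: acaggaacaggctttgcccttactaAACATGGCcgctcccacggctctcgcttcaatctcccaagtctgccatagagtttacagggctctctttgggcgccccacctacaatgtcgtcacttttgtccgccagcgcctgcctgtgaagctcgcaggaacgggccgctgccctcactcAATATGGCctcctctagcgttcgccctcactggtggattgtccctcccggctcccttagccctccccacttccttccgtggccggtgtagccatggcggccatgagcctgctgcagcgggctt
Cox8a: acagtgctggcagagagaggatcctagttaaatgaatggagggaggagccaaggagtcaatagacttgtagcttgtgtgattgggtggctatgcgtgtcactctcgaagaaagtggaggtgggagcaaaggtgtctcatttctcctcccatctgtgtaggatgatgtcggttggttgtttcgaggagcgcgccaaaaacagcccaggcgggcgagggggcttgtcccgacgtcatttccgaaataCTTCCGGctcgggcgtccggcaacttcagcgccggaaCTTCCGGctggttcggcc
Cox8b: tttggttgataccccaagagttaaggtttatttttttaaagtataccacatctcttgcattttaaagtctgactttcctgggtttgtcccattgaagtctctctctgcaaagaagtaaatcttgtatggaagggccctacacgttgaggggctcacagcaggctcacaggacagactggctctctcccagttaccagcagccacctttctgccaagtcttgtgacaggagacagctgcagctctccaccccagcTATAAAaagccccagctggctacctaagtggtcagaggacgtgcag
Cox7a2: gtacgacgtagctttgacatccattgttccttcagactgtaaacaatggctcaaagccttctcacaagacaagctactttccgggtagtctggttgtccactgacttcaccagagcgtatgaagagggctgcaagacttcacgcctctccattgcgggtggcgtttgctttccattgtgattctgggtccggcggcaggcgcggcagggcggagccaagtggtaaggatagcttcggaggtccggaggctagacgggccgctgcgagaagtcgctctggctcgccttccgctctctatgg
Cox7a1: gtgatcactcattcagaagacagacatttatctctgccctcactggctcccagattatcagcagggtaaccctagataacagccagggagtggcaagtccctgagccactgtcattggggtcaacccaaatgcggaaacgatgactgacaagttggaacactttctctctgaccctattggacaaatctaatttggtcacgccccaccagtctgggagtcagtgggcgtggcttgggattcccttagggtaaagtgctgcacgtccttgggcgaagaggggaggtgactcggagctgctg

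The NRF1 motif was in 12 of 76 promoters (15.8%), against 3.61% of 17492 protein-coding and 2.80% of all 27025 promoters. The ETS motif was in 16 (21.1%) against 11.9% and 9.12%, and the YY1 motif in 17 (22.4%) against 6.69% and 6.23%. At least 1 of these was in 39 (51.3%) against 20.03% of protein-coding promoters. The TATA motif was in 7 (9.21%) against 13.3% and 14.2%. The ratio of observed to expected CpG had a median of 0.831 over the 76 promoters and of 0.576 over protein-coding promoters. The 4 matched restricted isoforms, which were among the low genes above, had a median of 0.382 and no match to the NRF1, ETS or YY1 motif, against 0.838 and 39 promoters with a match over the other 72. A match is a run of letters and not a measured site, and the part of CpG content in the motif shares was not tested. These comparisons were chosen after the values were seen.

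**Figure D4:**
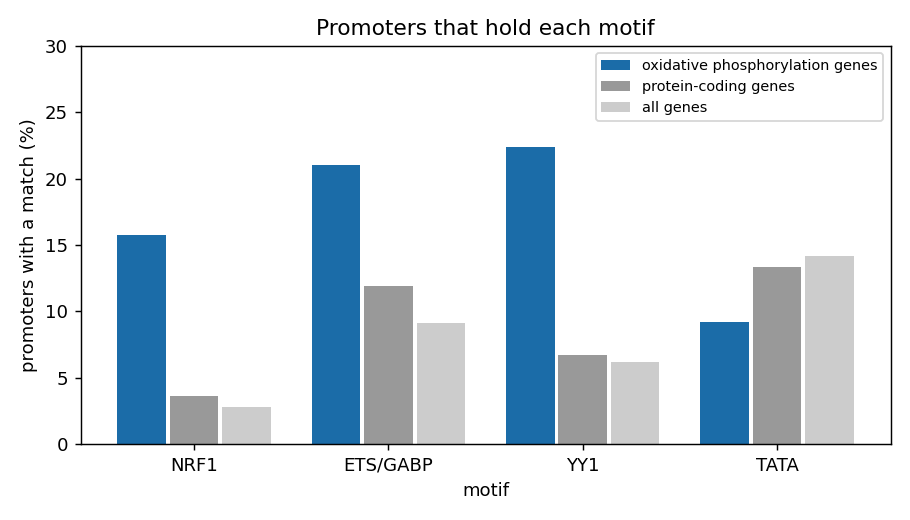
Share of promoters (in %) with at least 1 match to each motif, for the 76 matched oxidative phosphorylation genes, all 17492 protein-coding genes and all 27025 genes with a RefSeq promoter. The NRF1, ETS and YY1 motifs were more frequent in the oxidative phosphorylation genes than in either background, and the TATA motif less frequent.

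The factors named for these motifs were all detected. *Nrf1* was at 11.04 FPKM on average, *Gabpa* at 15.2, its partners *Gabpb1* at 19.5 and *Gabpb2* at 5.40, and *Yy1* at 34.7 FPKM. The coactivators known for raising mitochondrial genes in muscle and brown fat were not at such levels. *Ppargc1a* (PGC-1alpha) was at 0.922, 0.701 and 0.0838 FPKM, and *Ppargc1b* reached 0.0672 FPKM at most. Their relative *Pprc1* was at 9.002 FPKM. Of the oestrogen-related receptors, *Esrra* was at 8.37 FPKM, *Esrrg* at 0.136 FPKM and *Esrrb* listed at 0. The genes for transcribing and copying mitochondrial DNA were detected, with *Tfam* at 6.03, *Tfb1m* at 2.97, *Tfb2m* at 9.09, *Polrmt* at 5.17 and *Polg* at 14.4 FPKM. Of these 16 regulators, 12 reached 1 FPKM and 5 reached 10 FPKM.

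Among the other genes of the pathway, structure and assembly were split by median but overlapped in level. The 4 genes for subunits and an inhibitor had a median of 108 FPKM, and the assembly lists had medians of 8.50 to 13.3 FPKM. The assembly factors *Cox20* and *Cox17*, at 73.6 and 70.7 FPKM, lay above *Cyc1* and *Atpif1*. Subunits and an inhibitor that the rule misses by name were high, with *Usmg5* at 195, *2010107E04Rik* at 161, *Cyc1* (cytochrome c1 of complex III) at 55.6 and the ATP synthase inhibitor *Atpif1* at 33.1 FPKM. Of 16 carriers and feeders of electrons, 15 reached 1 FPKM and 6 reached 10 FPKM. *Etfb* and *Etfa*, the electron transfer flavoprotein subunits, were at 51.0 and 33.9 FPKM, somatic cytochrome c (*Cycs*) at 35.8 FPKM and *Coq2* of ubiquinone synthesis at 21.7 FPKM, while the testis cytochrome c gene *Cyct* was listed at 0.

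Together with the 7 above, 49 assembly factors were listed, of which 47 reached 1 FPKM, with a median of 9.16 FPKM. For complex I outside the rule, 7 of 7 did, led by *Foxred1* at 16.3, *Tmem126b* at 11.4, *Ecsit* at 9.53 and *Acad9* at 9.16 FPKM. For complex II, 4 of 4 did, *Sdhaf4* at 26.5, *Sdhaf1* at 13.5, *Sdhaf2* at 13.2 and *Sdhaf3* at 5.79 FPKM. For complex III, 5 of 6 did, led by *Uqcc2* at 55.1, *Uqcc3* at 17.4, *Uqcc1* at 9.95 and *Bcs1l* at 7.05 FPKM, and *Lyrm7* was at 0.757 FPKM. For complex IV, 20 of 21 did, led by *Cox20* at 73.6, the copper chaperone *Cox17* at 70.7, *Coa3* at 52.3 and *Surf1* at 33.3 FPKM, and *Pet117* was at 0.0513 FPKM. For complex V, 4 of 4 did, *1110001J03Rik* at 27.9, *Tmem70* at 12.1, *Atpaf2* at 9.13 and *Atpaf1* at 7.48 FPKM. Of the supercomplex and hypoxia-linked genes, *Higd2a* was at 86.6, *Higd1a* at 19.1 and *Higd1b* at 7.83 FPKM, and *Higd1c* was listed at 0. Across these lists, 6 of the 40 detected assembly factors outside the rule (15%) were over 2-fold apart between libraries, against 12.7% of all detected genes.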

How the data were processed

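RNA from FACS-purified adult lung ECs was sequenced from poly-A selected, unstranded libraries as 51 bp read pairs. The authors deposited 1 FPKM value per gene symbol and library on mm10. The submitters' processing notes list bcl2fastq 2.17, FastQC 0.11.5, Trimmomatic 0.36, TopHat2 2.1.0 and Cufflinks 2.2.1, whereas the study's methods describe STAR and HTSeq for counts. The gene annotation behind the FPKM values is not given in the sources used here. All 3 sample columns were used (0 left out).

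The values were used as deposited. Detected genes had a mean of 1 FPKM or more, and differences between libraries used log2(FPKM + 1). There is 1 group, so no test was made. Named genes were those under 1 FPKM, the isoform families, the 3 highest and 2 lowest detected genes of each complex, the core of complex I, all of complex II, the 5 with the largest ratio between libraries, and the leading genes and all regulators of the pathway lists. Other genes, such as *Ndufa11*, *Ndufs5*'s and *Ndufaf3*'s partners, were named after their values were seen. A gene that the naming rule covers is not reported here. The genes, gene lists and motifs were chosen with earlier results of these data known.

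Depth was estimated from 7084 genes with 1 GENCODE M21 transcript of 800 to 4000 bp. Length, less a correction of 150, 150 and 170 bp (S38, S44 and S52), was multiplied by FPKM, and the step giving whole fragments was sought. Of the low values, 79.1% of 287, 76.9% of 386 and 77.2% of 189 came within 0.15 of a whole number. The step was fitted to these values, so those shares have no chance level. On simulated counts, with cleaner steps than the real ones, 3 known depths were recovered within 0.305%. Fragment numbers of short genes are approximate. Positions, lengths, overlaps and shared 51-base windows came from GENCODE M21 (GRCm38, the assembly of mm10), and all 92 symbols were found. Genes without a matched promoter included *Atp5a1*, *Cox4i1*, *Cox4i2*, *Cox6a2*, *Cox6c*, *Cox8c*, *Ndufa2*, *Ndufa4l2*, *Ndufaf6*, *Ndufb9*, *Ndufs1*, *Sdhc*, *Uqcrb*, *Uqcrc2* and *Uqcrq*. Depth, shared windows, neighbours, length and CpG were examined after the values were seen. Python 3.11.15, pandas 2.3.3, numpy 2.4.6 and scipy 1.17.1 were used. The alternatives were leaving out each library, rescaling, other thresholds, filters and pseudocounts, and structural subunits only.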

Additional observations from a re-analysis of the deposited data

How the results depend on the processing

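Of 103 values recomputed under an alternative, 78 moved by less than the spread between libraries or, for counts, by under 1.5-fold. Some of the 78 could hardly have moved further. A mean isoform ratio with 1 library left out cannot shift by more than its SD over the libraries. A difference between a pair of libraries hardly changes when the other library is left out. The 78 of 103 is therefore no measure of how stable the results are. Rescaling each library to a sum of 1000000 lowered the median of the 92 genes to 51.9 FPKM and those of complexes I to V to 41.2, 51.6, 61.7, 70.5 and 131, so the order of the complexes held. It shifted the median of all detected genes by -0.44 for S44 minus S38, -0.34 for S52 minus S38 and 0.09 for S52 minus S44. The genes of oxidative phosphorylation moved with them, to -0.48, -0.35 and 0.0611, the last a reversal, and 8 were then over 2-fold apart. Rescaling to the upper quartile gave 0.00917, -0.00147 and -0.0755, the first a reversal, and a mean of at least 10 FPKM gave 0.0272 for S44 minus S38, a reversal, and 3 genes over 2-fold apart. A pseudocount of 0.1 gave 9 such genes, and leaving out 1 library gave 1 to 4, against 5. Structural subunits alone moved the medians of complexes I and IV to 66.7 and 158 FPKM. Leaving out 1 library moved the median of complex III to between 80.8 and 90.8 FPKM. Without the 18 genes that share over 10% of their windows, an alternative chosen after seeing the data, the median of all was 68.8 FPKM, those of complexes III and IV were 71.0 and 25.9, and S52 minus S44 was -0.0680. In that setting complex IV fell below the other complexes, since its restricted isoforms remained. No paired analysis was possible because there is 1 group. Genes listed at 0 and those of few fragments are limited by depth.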
